A study of Mus musculus with 9 samples.

Results

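Fatty acid binding proteins are small proteins of the cytoplasm that hold a long-chain fatty acid inside a barrel of strands and carry it between the plasma membrane, mitochondria, peroxisomes, lipid droplets and the nucleus. Each member is named for the tissue in which it is best known: Fabp1 for the liver, Fabp2 for the intestine, Fabp4 for adipocytes, Fabp5 for the epidermis and Fabp7 for the brain. In hepatocytes Fabp1 is the main carrier and can hand ligands to PPAR alpha, the nuclear receptor that turns on fatty acid oxidation, while Fabp4, Fabp5 and Fabp7 are also known from macrophages, endothelium and other cells.

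The genes described here are these 5 members, chosen by symbol from the 19686 genes of the count table, and each of them had counts in all 9 libraries. The set was selected on a readout, the stepwise fall of Fabp5 from control to model to DSS rats, so all values of Fabp5 below are a description and carry no test. The other 4 members were tested. All 5 members passed the filter on low counts in every comparison.

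Liver RNA of male Wistar rats was sequenced, with 3 rats in each of 3 groups. Control rats drank water and received saline by gavage, model rats drank 15% fructose and received saline, and DSS rats drank 15% fructose and received the 50% methanol extract (HME) of Danggui-Shaoyao-San, a mixture of medicinal plants, at 1.8 g/kg. The labels call the treated group only DSS, and it was read as the HME group because the study's methods took that extract alone to sequencing. All rats were treated for 8 weeks and were fasted for 12 h before the livers were taken, so each level refers to fasted liver. No group received the extract without fructose, so the DSS group differs from the model group by the extract and from the control group by fructose and extract together.

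Although the organism label is mouse, the strain label is Wistar rat and every identifier is a rat Ensembl gene, and rat was taken as the species. Libraries held 14345819 to 26837227 counts. The 7 hepatocyte markers summed to 136129 to 172920 CPM, counts per 1000000 counts of the library, in control, 172038 to 219950 in model and 169139 to 213834 in DSS rats, mostly from Alb, and none was at 0. With edgeR 0 of the 7 were called in each comparison, while 2, 2 and 3 had an unadjusted p under 0.05 and DESeq2 called 2, 1 and 1 in model against control, DSS against model and DSS against control. Over all genes tested 13.2%, 8.02% and 24.3% had such a p and DESeq2 called 2.05%, 1.18% and 6.09%. Of the 7, 5, 4 and 6 had higher fitted means in these comparisons, beside 49.9%, 50.1% and 49.1% of all genes tested. CPM were scaled with TMM, a factor per library that balances most genes. In bulk liver, fewer cells of a type and less RNA per cell cannot be told apart.

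The 5 members covered a wide span of levels. Per kilobase of coding sequence, with lengths taken from the mouse orthologues (381 to 405 bases), the control mean was 5728 CPM for Fabp1, 199 for Fabp5, 105 for Fabp7, 2.07 for Fabp2 and 1.89 for Fabp4. The coding lengths were almost equal, so CPM give the same order. In control rats the ranges of Fabp1, Fabp5 and Fabp7 did not overlap, whereas those of Fabp2 and Fabp4 did. In model rats Fabp7 (192 CPM per kilobase) stood above Fabp5 (71.4), and in DSS rats, at 358, it stood above Fabp5 again, in both cases without overlap in CPM. By mean CPM over all libraries Fabp1 was ranked 49 among all genes, Fabp7 1384, Fabp5 2883, Fabp4 11310 and Fabp2 12302.

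**Figure D1:**
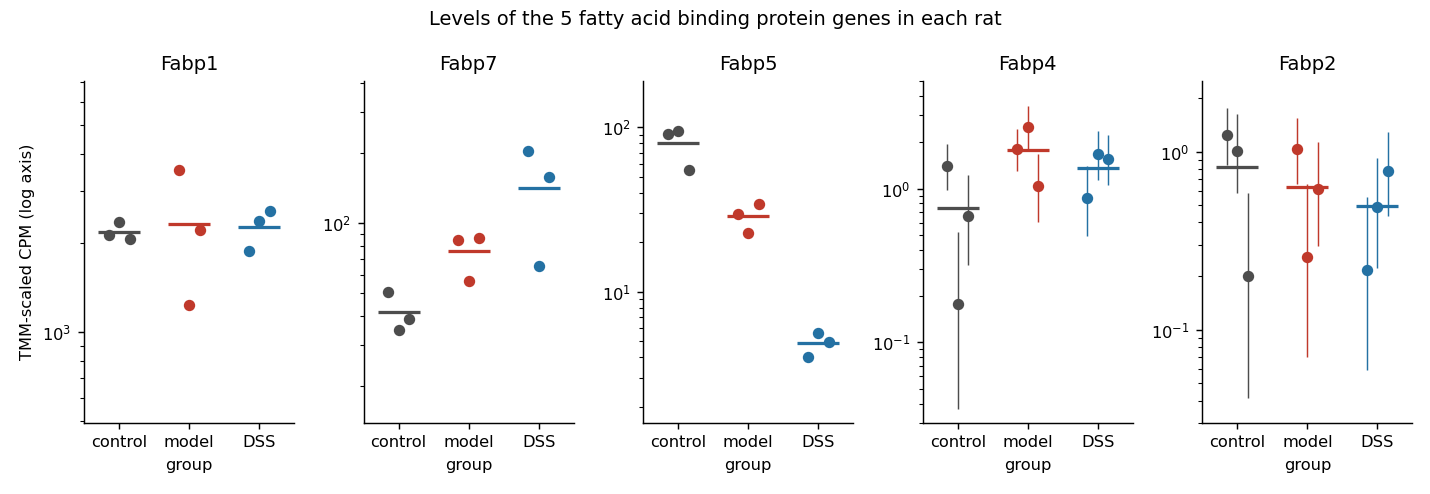
Level of each member in each rat, in TMM-scaled CPM on a log axis whose range differs between panels. Points are rats (replicates 1 to 3 from left to right), horizontal bars are group means, and thin vertical lines for Fabp4 and Fabp2 are 95% intervals of the counting error alone. Fabp5 steps down from 54.8 to 95.6 in control rats to 4.01 to 5.66 in DSS rats, while the Fabp1 means lie between 2182 and 2327.

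Fabp5 (ENSRNOG00000049075), the epidermal form, which can also carry ligands to PPAR delta, was the member with the stepwise fall. The control rats had 90.9, 95.6 and 54.8 CPM, the model rats 29.6, 22.9 and 34.2, and the DSS rats 4.01, 5.66 and 4.94. All control rats lay above all model rats, and all model rats above all DSS rats. The group means were 80.5 ± 22.3, 28.9 ± 5.69 and 4.87 ± 0.83 CPM (SD, n = 3 each).

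The counts behind the Fabp5 levels were 825 to 2265 in control, 357 to 688 in model and 74 to 105 in DSS libraries. The fitted log2 difference was -1.48 (SE 0.240) between model and control, or 2.78-fold lower. It was -2.56 (SE 0.216) between DSS and model, or 5.91-fold lower, and -4.05 (SE 0.247) between DSS and control, or 16.6-fold lower. These 3 comparisons share their libraries in pairs, so the third value is not separate from the first and second. Under the alternative settings the Fabp5 difference ranged from -1.69 to -1.33, from -2.71 to -2.42 and from -4.26 to -3.90.

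Fabp5 is also known from macrophages and endothelial cells, so the markers of these cells are given beside it. The 8 macrophage and Kupffer cell markers summed to 302 to 685 CPM in control, 218 to 498 in model and 302 to 416 in DSS rats. With edgeR and with DESeq2 0 of these 8 markers were called in each comparison (1, 0 and 1 had an unadjusted p under 0.05 for model against control, DSS against model and DSS against control), and none was at 0 in any group. Over all genes tested edgeR called 0.0801%, 0.136% and 1.48% in these comparisons, DESeq2 2.05%, 1.18% and 6.09%, and 13.2%, 8.02% and 24.3% had an unadjusted p under 0.05. With 8 markers these counts of calls and of p-values do not differ visibly from the background. Their median log2 difference was -0.35 between model and control, with 0 of 8 higher, 0.06 between DSS and model, with 6 of 8 higher, and -0.31 between DSS and control, with 0 of 8 higher. Over all genes tested 49.9%, 50.1% and 49.1% had higher fitted means in these comparisons, and this also holds beside the endothelial markers. The 8 endothelial markers in the table summed to 229 to 344, 174 to 406 and 242 to 326 CPM, with 0 calls by either tool and 0, 0 and 1 with an unadjusted p under 0.05. Their median log2 difference was -0.20 between model and control, with 1 of 8 higher, 0.10 between DSS and model, with 7 of 8 higher, and -0.15 between DSS and control, with 3 of 8 higher. The part of these cells in the Fabp5 levels was not tested.

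Fabp7 (ENSRNOG00000000814), the brain form, known from glial precursors and with a preference for polyunsaturated fatty acids, had group means in the opposite order. The control rats had 50.6, 34.8 and 38.8 CPM, the model rats 84.9, 56.3 and 86.5, and the DSS rats 203.3, 65.2 and 157.1. The means were 41.4 ± 8.21, 75.9 ± 17.0 and 141.9 ± 70.3 CPM (SD, n = 3 each). The control rats lay below all other rats, but DSS rat 2 lay within the range of the model rats, and the DSS group had the widest spread.

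In the comparison of model with control the log2 difference of Fabp7 was 0.87 (SE 0.211, 95% interval 0.39 to 1.35), higher in 3 of 3 model rats. It missed the threshold of FDR 0.01 with an edgeR FDR of 0.122 over all genes tested (unadjusted p = 0.00293). DESeq2, a second count test, gave an FDR of 0.0112, also above the threshold. A call in all comparisons required a log2 difference of 0.5 or more in size together with the FDR threshold of 0.01.

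Between DSS and model rats Fabp7 differed by 0.91 (SE 0.381, 95% interval 0.03 to 1.78), with an edgeR FDR of 0.612 (unadjusted p = 0.0444). The groups overlapped in 1 rat, and the difference missed the threshold once adjusted over all genes. It was 0.55 without DSS rat 1 and 1.25 without DSS rat 2, with edgeR FDR of 0.9999 and 0.203. Between DSS and control rats it differed by 1.77 (SE 0.439, 95% interval 0.67 to 2.87), or 3.41-fold, higher in 3 of 3 DSS rats. The edgeR FDR was 0.0782 (unadjusted p = 0.00812) and missed the threshold. DESeq2 gave 1.78 with an FDR of 0.00466, which passed it. Without DSS rat 2 the edgeR difference was 2.12 with an FDR of 0.00148, so whether Fabp7 was called depended on 1 library and on the test.

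Fabp5 and Fabp7 exchanged places within single libraries, a comparison that needs no scaling between libraries. Control rats had 1.8, 2.74 and 1.41 Fabp5 counts per Fabp7 count. Model rats had 0.349, 0.407 and 0.396, and DSS rats 0.0197, 0.0868 and 0.0314. Every control rat had more Fabp5 than Fabp7, every model and DSS rat had less, and the 3 groups did not overlap. Since Fabp5 was chosen for its fall, this ratio is a description.

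**Figure D2:**
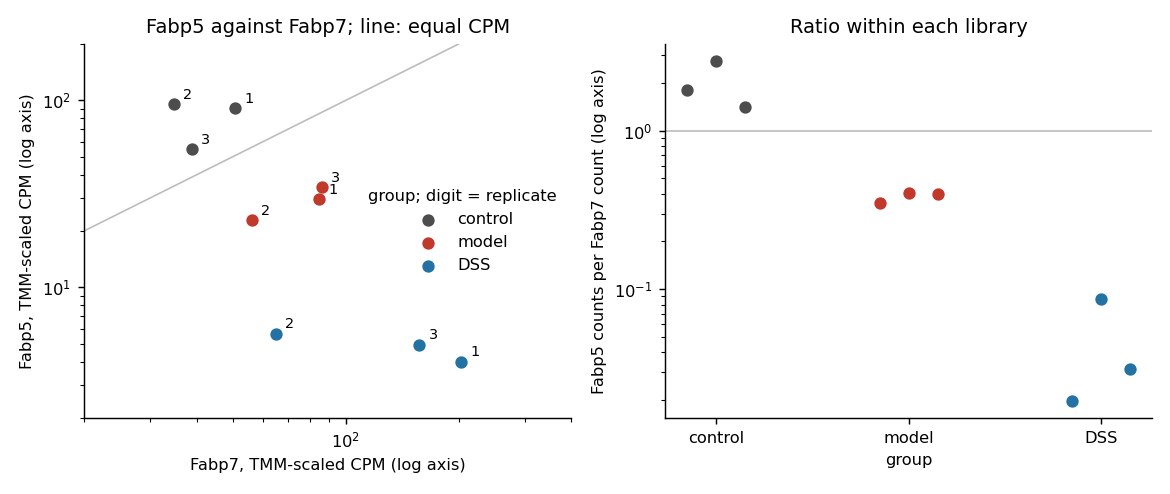
Left, Fabp5 against Fabp7 in each rat, both in TMM-scaled CPM on log axes, with the line of equal CPM; right, Fabp5 counts per Fabp7 count in each library on a log axis, with a line at equal counts. Points are rats coloured by group. The control rats lie above the line, and the ratio falls from 1.41 to 2.74 in control rats to 0.0197 to 0.0868 in DSS rats.

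Fabp1 (ENSRNOG00000006675), the liver form and a textbook PPAR alpha target, dominated the family. It had 2130, 2355 and 2062 CPM in control rats, 3528, 1234 and 2218 in model rats, and 1873, 2373 and 2571 in DSS rats. The means were 2182 ± 153, 2327 ± 1151 and 2272 ± 360 CPM (SD, n = 3 each). The groups overlapped in all comparisons, and the model group held both the highest and the lowest rat of the 9.

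The spread of Fabp1 between rats was 7.03% of the mean in control, 49.5% in model and 15.8% in DSS rats. The log2 difference was 0.09 between model and control (SE 0.336, 95% interval -0.68 to 0.87, edgeR FDR 0.928) and -0.03 between DSS and model (SE 0.345, 95% interval -0.83 to 0.77, edgeR FDR 0.989). Between DSS and control it was 0.05 (SE 0.147, 95% interval -0.28 to 0.38, edgeR FDR 0.871). The intervals that involve the model group leave room for differences of more than 0.5 in either direction, while that of DSS against control does not. The sign of each value turned under other scalings or when 1 rat was left out, for example to -0.35 between model and control without model rat 1, whose level was the highest.

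Fabp1 made up 93.7% to 95.6% of the counts of the 5 members in control libraries, 93.8% to 96.8% in model libraries and 90.0% to 97.0% in DSS libraries. The next shares are of the summed counts of Fabp2, Fabp4, Fabp5 and Fabp7 with the family genes Fabp3 and Fabp12, which are not members. Fabp5 held 55.8% to 71.5% in control, 24.3% to 27.5% in model and 1.91% to 7.53% in DSS libraries. Fabp7 held 26.1% to 39.5%, 66.5% to 69.6% and 86.7% to 97.0%. There were 23.4 to 37.6 Fabp1 counts per Fabp5 count in control, 53.9 to 119 in model and 419 to 520 in DSS libraries.

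Fabp4 (ENSRNOG00000010805), the adipocyte form, which is also known from macrophages and capillary endothelium, was at the edge of detection. It had 35, 3 and 10 counts in control, 42, 39 and 17 in model, and 16, 31 and 30 in DSS libraries. These were 1.41, 0.178 and 0.665 CPM, then 1.81, 2.5 and 1.05, then 0.866, 1.67 and 1.56. The control and model rats overlapped, as did the other pairs of groups.

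The log2 difference of Fabp4 was 1.18 between model and control (SE 0.620, 95% interval -0.23 to 2.60, edgeR FDR 0.471), -0.38 between DSS and model (SE 0.416, edgeR FDR 0.881) and 0.79 between DSS and control (SE 0.580, edgeR FDR 0.448). None of the 3 passed the threshold, and differences inside such wide intervals were not detectable. With 1 rat left out the Fabp4 difference ranged from 0.75 (without control rat 2) to 2.08 (without control rat 1) between model and control and, without the same rats, from 0.36 to 1.70 between DSS and control. Between DSS and model it ranged from -0.64 (without model rat 3) to -0.08 (without model rat 2), and it was -0.14 without DSS rat 1. Of the adipocyte markers, Adipoq, the adipokine adiponectin, had at most 1 count in any library and Retn, resistin, at most 2. The 5 adipocyte markers in the table summed to 78.7 to 94.9 CPM in control, 92.0 to 106 in model and 72.6 to 96.4 in DSS rats, nearly all from Cidec, Cfd and Lipe, which liver also expresses. The sums of the endothelial and macrophage markers are given above, and the part of any of these cells in the Fabp4 counts was not tested.

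Fabp2 (ENSRNOG00000024947), the intestinal form, had the lowest mean over the 9 libraries and in model and DSS rats, while in control rats its mean of 0.818 CPM stood beside 0.749 CPM for Fabp4. It had 31, 17 and 3 counts in control, 24, 4 and 10 in model, and 4, 9 and 15 in DSS libraries, or 0.199 to 1.24 CPM, 0.257 to 1.03 CPM and 0.217 to 0.780 CPM. All 3 groups overlapped. The log2 differences were -0.36 (SE 0.673, edgeR FDR 0.855), -0.39 (SE 0.625, edgeR FDR 0.919) and -0.77 (SE 0.642, edgeR FDR 0.505) for model against control, DSS against model and DSS against control. Of the markers of intestinal epithelium, Cdx2, a gut transcription factor, had at most 1 count and Vil1, villin, at most 10 counts in a library, while Cdh17, a cadherin, had 478 to 3326. Cdh17 had means of 131, 55.0 and 68.1 CPM in control, model and DSS rats. In the same order of comparisons its log2 differences were -1.25 (edgeR FDR 0.306, unadjusted p = 0.0275), 0.31 (edgeR FDR 0.921) and -0.95 (edgeR FDR 0.478). Cdh17 stood far above Cdx2 and Vil1 in every library, so its values are not read here as a measure of intestinal cells. The part of intestinal cells in the Fabp2 counts was not tested. For Fabp2 the counting error alone was large, and the sign of the value turned without single rats in both comparisons with model rats. In DSS against control it ranged from -1.24 (without DSS rat 3) to -0.32 (without control rat 1), and it was -1.18 without control rat 3 and -0.42 without DSS rat 1.

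**Figure D3:**
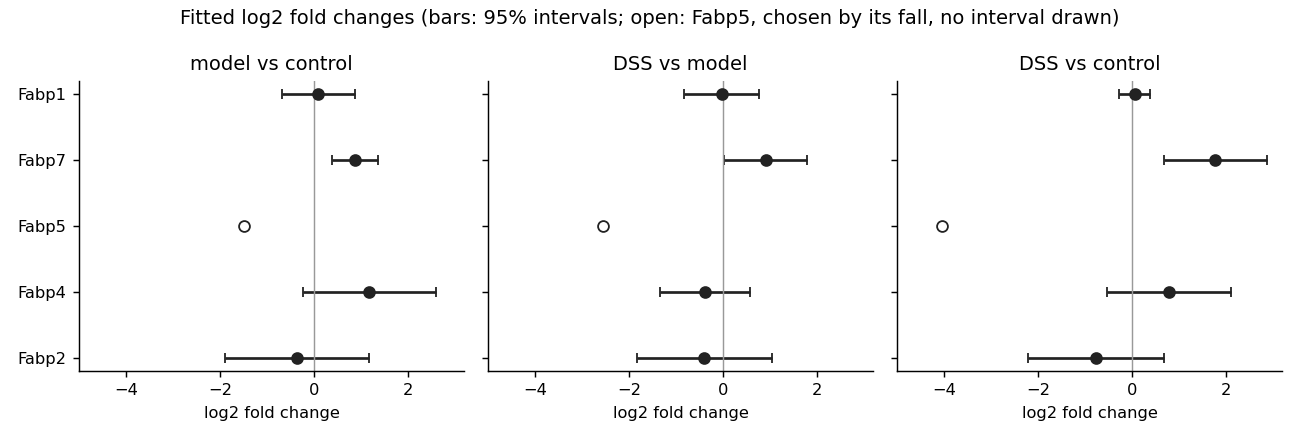
Fitted log2 fold change of each member in the 3 comparisons, with 95% intervals from the edgeR fit as bars. Fabp5 is drawn open and without an interval because it was chosen by its fall. The Fabp7 points lie at 0.87, 0.91 and 1.77, the Fabp1 points close to 0, and the intervals of Fabp4 and Fabp2 cross 0.

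Of the 4 tested members 0 were called with edgeR in each comparison, beside the same 0.0801% of all genes tested in model against control, 0.136% in DSS against model and 1.48% in DSS against control. At an unadjusted p under 0.05, 1 of 4 passed each time, always Fabp7, beside 13.2%, 8.02% and 24.3% of all genes. DESeq2 called 0, 0 and 1 of 4, beside 2.05%, 1.18% and 6.09%. The groups did not overlap for 1, 0 and 1 of 4, beside 21.1%, 13.9% and 30% of all genes. With 4 genes these shares do not set the tested members apart from the background. For a single gene, the exact permutation test of 3 rats against 3 could not give a two-sided p below 0.1.

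The other genes of the family gave 0 calls with edgeR and with DESeq2 among 3, 4 and 4 tested, and 0, 0 and 1 had an unadjusted p under 0.05 in model against control, DSS against model and DSS against control. Over all genes tested edgeR called 0.0801%, 0.136% and 1.48% and DESeq2 2.05%, 1.18% and 6.09%. An unadjusted edgeR p under 0.05 was reached by 13.2%, 8.02% and 24.3% of them. With so few genes the family counts are not set apart from these shares. Fabp3, the heart form, had 7 to 23 counts per library and Fabp12 16 to 85. Fabp12 differed by 0.09 between model and control (edgeR FDR 0.952), by -0.95 between DSS and model (edgeR FDR 0.672) and by -0.87 between DSS and control (edgeR FDR 0.201).

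Among the 5 genes whose log2 CPM followed Fabp5 most closely over the 9 libraries were Acsl5, with a Pearson correlation of 0.985, Ppid (0.980), Dlat (0.974) and Hspa4l (0.974), out of 10101 genes with a mean count of at least 50. The 9 points share the 3 group steps, and the values are a description. Acsl5, an acyl-CoA synthetase that activates long-chain fatty acids, had group means of 496 ± 163, 248 ± 37.1 and 109 ± 15.4 CPM in control, model and DSS rats (SD, n = 3 each). Dlat, the acetyltransferase subunit of pyruvate dehydrogenase, had 51.9 ± 10.2, 41.7 ± 6.37 and 18.6 ± 1.27 CPM. Hspa4l, a heat shock protein of the HSP110 family, had 11.2 ± 2.60, 5.09 ± 2.06 and 1.28 ± 0.38 CPM.

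Ppid, a cyclophilin, had 36.2 ± 2.81, 28.9 ± 3.61 and 18.7 ± 0.89 CPM, with smaller steps than those of Fabp5. The DSS rats kept 4.98% to 7.04% of the control mean for Fabp5, and a larger part for each of these 4 genes.

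**Figure D4:**
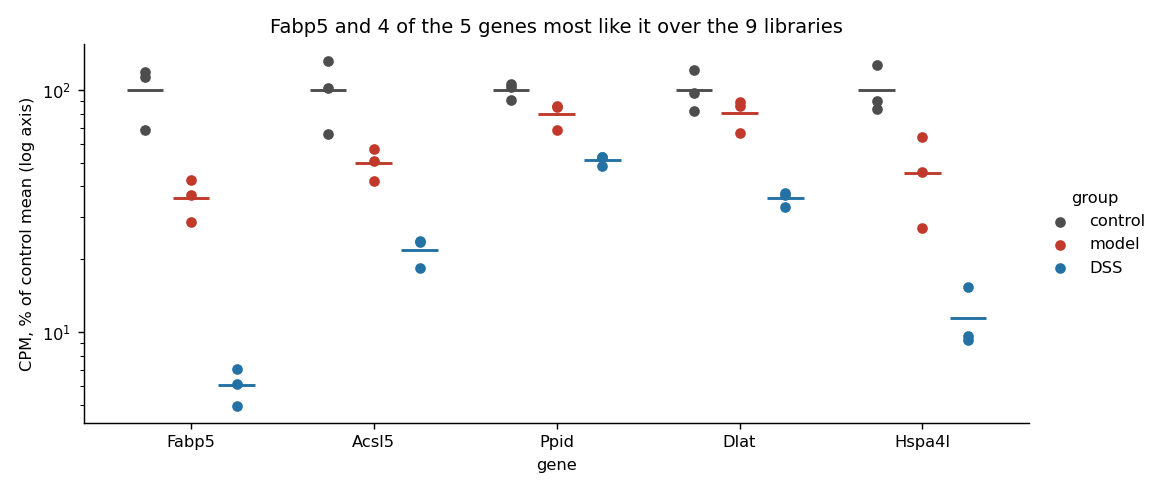
Fabp5 and 4 of the 5 genes with the highest correlation to it, each rat as a percentage of that gene's control mean in CPM, on a log axis. Points are rats and bars are group means. Fabp5 has the lowest DSS points, 4.98% to 7.04% of its control mean.

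The closest genes to Fabp7 were Slc35f5 (Pearson correlation 0.956), Sat2 (0.948) and Csnk2a2 (0.946), over the same 9 libraries. Slc35f5, a solute carrier, had 43.1 ± 3.34, 51.2 ± 2.19 and 58.8 ± 5.39 CPM in control, model and DSS rats. Csnk2a2, a catalytic subunit of casein kinase 2, had 16.8 ± 1.38, 21.4 ± 2.79 and 26.2 ± 2.58 CPM. Sat2, an acetyltransferase, had 6.09 ± 0.29, 7.67 ± 0.57 and 10.7 ± 2.46 CPM.

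Closest to Fabp1 were Rilp (0.985), Eral1 (0.981) and Akr1e2 (0.965), whose group means were nearly equal, as for Fabp1. Akr1e2, an aldo-keto reductase, had 85.9 ± 7.0, 85.2 ± 19.1 and 86.6 ± 4.75 CPM, again with the widest spread in model rats. Closest to Fabp4 were Plekho1 (0.963), Lyz2 (0.900) and Ghitm (0.887), of which Lyz2, the lysozyme of myeloid cells, had 19.9 ± 5.13, 24.7 ± 3.25 and 21.8 ± 3.00 CPM. Closest to Fabp2 were Fastkd1 (0.965), Sgsm3 (0.954) and Hdgfl2 (0.919). The Fabp4 and Fabp2 points rest on few counts.

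Fatty acid binding proteins act between uptake, activation, oxidation and storage, and the genes of these steps were counted from lists. Of 16 tested genes of uptake and activation, 0 were called in model against control and in DSS against model, and 1 fell in DSS against control, with list medians of 0.03, 0.09 and 0.00 on the log2 scale. The called gene was Acsl5, at -2.19 (SE 0.249, edgeR FDR 0.00331) between DSS and control. It differed by -1.0 (edgeR FDR 0.132) between model and control and by -1.18 (edgeR FDR 0.0360) between DSS and model. The median over all genes tested was 0.00, 0.00 and -0.01 in the 3 comparisons, and this holds beside each list.

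Of 11 receptors and partners that receive fatty acids in the nucleus, 1 rose, again in DSS against control. This was Pparg, the receptor best known from adipocytes, at 1.57 (SE 0.197, edgeR FDR 0.00295) with 47 to 54 counts in control and 148 to 156 in DSS libraries. Ppara differed by 0.14, 0.49 and 0.63, with edgeR FDR of 0.919, 0.861 and 0.102. The list medians were 0.03, 0.00 and -0.18.

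Of 22 PPAR alpha targets, 0 were called in model against control, although 19 had higher fitted means, with a list median of 0.48. Over all genes tested 49.9% had higher fitted means there, and 50.1% in DSS against model. In DSS against model 0 were called and 18 were lower, with a median of -0.12. In DSS against control 1 rose and the median was 0.26. The called gene was Cpt1a, which admits long-chain fatty acids to mitochondria, at 1.55 (SE 0.116, edgeR FDR 0.000271), from 105 ± 6.10 to 309 ± 24.6 CPM. Its mean in model rats was 126 ± 23.8 CPM. Cpt1a differed by 0.25 (edgeR FDR 0.551) between model and control and by 1.30 (edgeR FDR 0.0273) between DSS and model. Fabp1, a target of the same receptor, had values near 0 in all 3 comparisons.

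Of 19 genes of fatty acid synthesis and esterification, 0 were called in model against control, 3 fell in DSS against model and 6 fell in DSS against control, with list medians of -0.40, -1.01 and -1.58. Scd, the desaturase that makes monounsaturated fatty acids, fell from 8647 ± 923 CPM in model to 125 ± 79.9 CPM in DSS rats (log2 difference -6.11, SE 0.513, edgeR FDR 0.00266). Me1, malic enzyme, and Pklr, liver pyruvate kinase, fell in the same comparison, with log2 differences of -2.08 and -2.82. Against control, Scd, Fasn, Acaca, Acly, Srebf1 and Pklr fell, with log2 differences of -6.51, -4.02, -2.32, -2.89, -1.69 and -2.59.

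Of 14 genes of lipid droplets, lipolysis and lipoprotein export, 0 were called in model against control, 2 fell in DSS against model and 2 fell in DSS against control, with list medians of 0.04, -0.22 and -0.22. Tm6sf2, needed for lipoprotein export, fell by 1.15 (edgeR FDR 0.00870) and 1.12 (edgeR FDR 0.00106). Pnpla5, a lipase of lipid droplets, fell from 142 to 683 counts in model libraries to 0 or 1 in DSS libraries. It is 1 of the 2 calls of this list in DSS against model and passed the low-count filter there only through the model libraries, so its call is not counted as support. Mgll, monoglyceride lipase, fell by 0.84 between DSS and control (edgeR FDR 0.00679). Of these list calls, 4 held under every alternative setting (Cpt1a, Acaca, Pklr and Tm6sf2 in DSS against control), and 12 were lost under at least 1, mostly with 1 rat left out, with FDR of at most 0.0897. DESeq2 called more of the list genes: 1, 0, 2, 2 and 0 of uptake, receptors, PPAR alpha targets, synthesis and droplets in model against control, then 1, 1, 2, 8 and 2 in DSS against model, and 3, 2, 5, 13 and 3 in DSS against control. An unadjusted edgeR p under 0.05 was reached by 4, 1, 8, 6 and 2 of these lists' genes in model against control, by 3, 2, 5, 11 and 5 in DSS against model, and by 6, 5, 8, 14 and 6 in DSS against control. The all-gene shares beside these counts were 0.0801%, 0.136% and 1.48% for edgeR calls, 2.05%, 1.18% and 6.09% for DESeq2 calls and 13.2%, 8.02% and 24.3% for the unadjusted p. The synthesis list had the highest counts in both comparisons with DSS rats by each of the 3 rules.

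**Figure D5:**
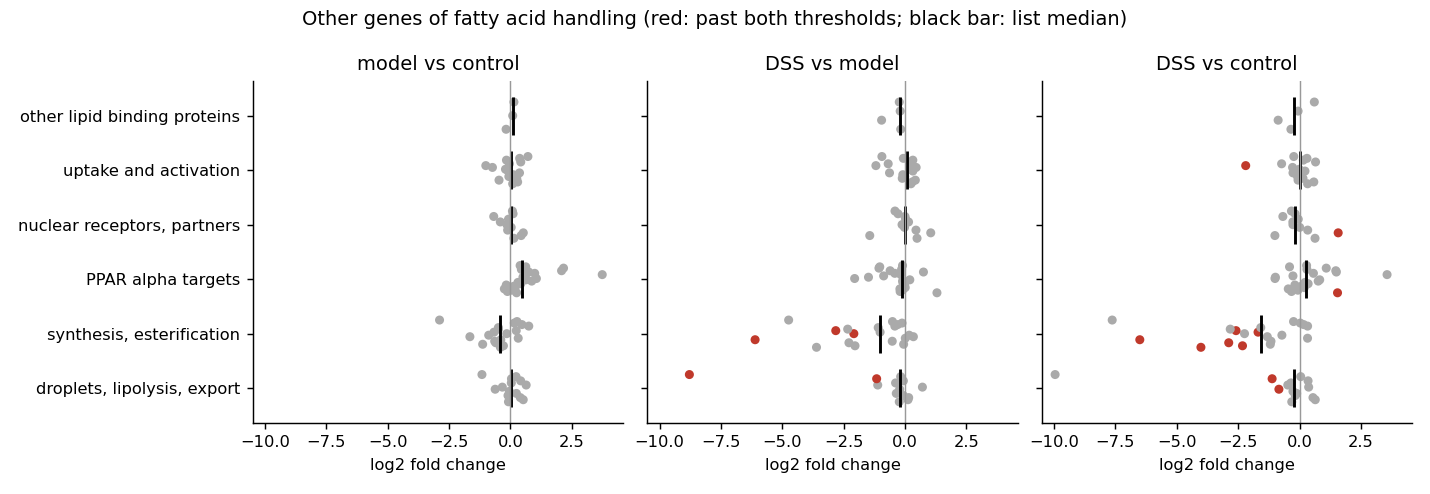
Log2 fold changes of the other genes of fatty acid handling in the 3 comparisons, by list. Each point is a tested gene, red where it passed both thresholds (0.5 for the size of the log2 fold change and 0.01 for the FDR), and the black bar is the list median. The synthesis list has its median at -0.40, -1.01 and -1.58 from left to right, and the other lists have medians between -0.22 and 0.48.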

How the data were processed

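Liver RNA of 9 rats was sequenced, 3 per group. Reads were mapped by the authors with HISAT2 and assigned to exons by HTSeq 0.6.1, unstranded (genome build Rnor_6.0 per the submitters' processing notes), and the authors deposited whole-number counts per gene without normalization. Reads of overlapping genes on opposite strands therefore cannot be told apart by strand. How reads of near-identical copies or pseudogenes were counted was not checked. A second deposited table of assembled transcripts was not used, since its unit is not stated. Totals were 14345819 to 26837227 counts. Intervals of counts cover counting error only.

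The 6 libraries of a comparison entered edgeR 4.0.16 under R 4.3.3: filterByExpr, TMM normalization, robust quasi-likelihood fit and two-sided test, with Benjamini-Hochberg adjustment over all genes tested. The call thresholds were 0.5 for the size of the log2 fold change and 0.01 for the FDR. DESeq2 1.42.0 was an alternative, beside DESeq2's size factors, library size alone, 2 other low-count filters, all 9 libraries in one fit, the replicate block, an FDR of 0.05, plain CPM for the levels, and each rat left out. The scripts were tested on simulated data. TMM factors were 0.866 to 1.13. P-values set a group difference against the spread between these rats within groups, and they do not extend to other cohorts.

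Named genes were the 5 members, every list gene called in any comparison, and the genes with the highest Pearson correlation of log2(CPM + 1) with each member (5 for Fabp5, 3 for the others), of which 1 is not reported here. Fabp3, Fabp12, Ppara and the marker genes were named after their values were seen. The members, lists and tests were chosen with earlier results of these data known. Coding lengths are those of mouse orthologues. List genes not matched in the table were not analysed here, and no rat genome was used, so no coordinates or sequences are given.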

Additional observations from a re-analysis of the deposited data

How the results depend on the processing

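Of 151 alternative values of the log2 differences of the 4 tested members, 138 kept their direction and their side of the threshold, 11 turned sign and 2 passed a threshold that the value given had missed. The levels in plain CPM moved by less than 1 SD for all 5 members. The 39 alternative values of Fabp5, which has no test, kept their sign. Since Fabp5 was chosen for its fall and its groups did not overlap, this is a description and carries no support. The sign of Fabp1 turned with library size alone (-0.10 for model against control, 0.010 for DSS against model, -0.086 for DSS against control) and with the replicate block (-0.032 and 0.090 for the first and second of these). With 1 rat left out at a time Fabp4 kept its sign, Fabp1 ranged from -0.35 to 0.39, from -0.34 to 0.40 and from -0.030 to 0.17, and Fabp2 from -0.95 to 0.081 for model against control and from -0.87 to 0.18 for DSS against model. For DSS against control Fabp7 was called with DESeq2 (1.78, FDR 0.00466) and ranged from 1.42 to 2.12 with 1 rat left out, with edgeR FDR from 0.00148 (without DSS rat 2) to 0.202.

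The number of genes called, 10, 17 and 187 in the 3 comparisons with edgeR, was 256, 147 and 769 with DESeq2, 71, 38 and 489 without a low-count filter and 75, 57 and 804 at an FDR of 0.05. It was 25 for model against control and 113 for DSS against control with all 9 libraries in one fit, and 11 for DSS against model with library size alone. With 1 rat left out it ranged from 0 to 10, from 2 to 12 and from 86 to 132. Library size alone shifted the median of all genes to -0.14 for both comparisons with control and changed the split of calls for DSS against control from 83 higher and 104 lower to 57 and 181. The cause of these shifts was not tested.

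With the replicate number as a block 0, 7 and 104 genes were called, and Fabp7 had FDR of 0.171, 0.491 and 0.0404. Same-numbered rats did not deviate together (correlations from -0.26 to -0.01 in 9 pairs), while other pairs ranged from -0.18 to 0.26. The deviations within a group sum to 0 by construction. A pairing by number was thus not seen, but these correlations cannot exclude it. With at least 10 counts in every library Fabp2 left all comparisons and Fabp4 both comparisons with control, so these values rest on low counts in some libraries. Whether depth or the spread between rats limits what could be detected for these members was not tested.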
